A study of Mus musculus with 7 samples.

Results

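The 10 genes described here encode ligands and receptors of the epidermal growth factor (EGF) family and 1 inhibitor of its receptor. They were taken by name from the table of 14820 genes that the study deposited for skin papillomas, where all 10 were found: the receptors Egfr, Erbb2 and Erbb3, the ligands Hbegf, Areg, Ereg, Epgn, Tgfa and Btc, and the inhibitor Errfi1. Papillomas are benign tumors of the epidermis. The control mice carried tet-p16, a human p16 gene that needs doxycycline and the activator rtTA to be expressed. The p16 mice, K5-rtTA/tet-p16, also carried K5-rtTA, which places that activator under the keratin 5 promoter of basal keratinocytes, and as the study describes it only part of the epidermal cells express the transgene. Mice of both groups received the mutagen DMBA on the skin once (50 nmol, at 3 weeks of age), then doxycycline in the drinking water and repeated topical TPA, a tumor promoter, and whole lesions were taken at 27 weeks of age, 10 days after the last TPA. Per the methods, the mice were females, both groups were siblings, tet-p16 was kept on a mixed C57Bl6 and 129sv background and K5-rtTA on FVB. Nothing in the labels ties the lesions to separate mice, and p-values reflect lesion-to-lesion spread, which may be within 1 mouse.

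The control group held 4 lesions, with the numbers 1, 2, 3 and 5 in their titles, and the p16 group 3 lesions, with the numbers 1, 2 and 3. The label of the deposited values marks number 4 of both groups as left out, and the sources used here give no reason. The lesions were profiled by CEL-Seq2, which counts the 3′ ends of transcripts. Values are normalized read counts, that is, reads divided by 1 size factor per papilloma. Libraries held 1158035 to 4365391 reads, with the fewest in p16 papilloma 2, where 1 read was worth 2.89 normalized counts. The transgene is human and the table lists mouse genes, so the p16 label was not checked against it. Markers of basal keratinocytes (7 genes) summed to between 33333 and 67907 normalized counts per papilloma and those of suprabasal keratinocytes (7 genes) to between 55621 and 134100.

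Ligands of the EGF family are made as membrane proteins and are released from the cell surface by proteases such as Adam17. They bind the receptor tyrosine kinase Egfr, which pairs with itself or with its relatives Erbb2 and Erbb3 and activates Ras and ERK. In the epidermis this pathway maintains the proliferation and migration of basal keratinocytes, and in mice treated with DMBA and TPA papillomas usually carry an activating mutation of a Ras gene, which acts downstream of the receptor.

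To ask which members differed between p16 and control papillomas, each gene was tested with limma on log2(normalized count + 1), and a call required an adjusted p under 0.05 over all 10466 genes tested. All 10 members passed the filter on low values, which asked for a group mean of 10 or more in control or p16 papillomas. Hbegf was called and was lower in p16 papillomas, so 1 of 10 members fell and 0 rose. Of all genes tested 5.62% were called, 2.96% lower and 2.66% higher in p16 papillomas. At an unadjusted p under 0.05 the count was again 1 of 10 members, beside 21.2% of all genes. The groups did not overlap for 2 of the 10 members, Hbegf (lower) and Erbb2 (higher), beside 19.6% of all genes tested (10.4% lower, 9.25% higher). The share of members without overlap lies near that of all genes, and the share at an unadjusted p under 0.05 lies below it. The share called lies above that of all genes but rests on 1 gene. Beside a median log2 change of -0.02 over all genes tested, the median was -0.44 for the 6 ligands and 0.16 for the 3 receptors. The table marks genes that were expressed in sorted keratinocytes. All members but Ereg carry that mark, as do 12235 of all 14820 genes.

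**Figure D1:**
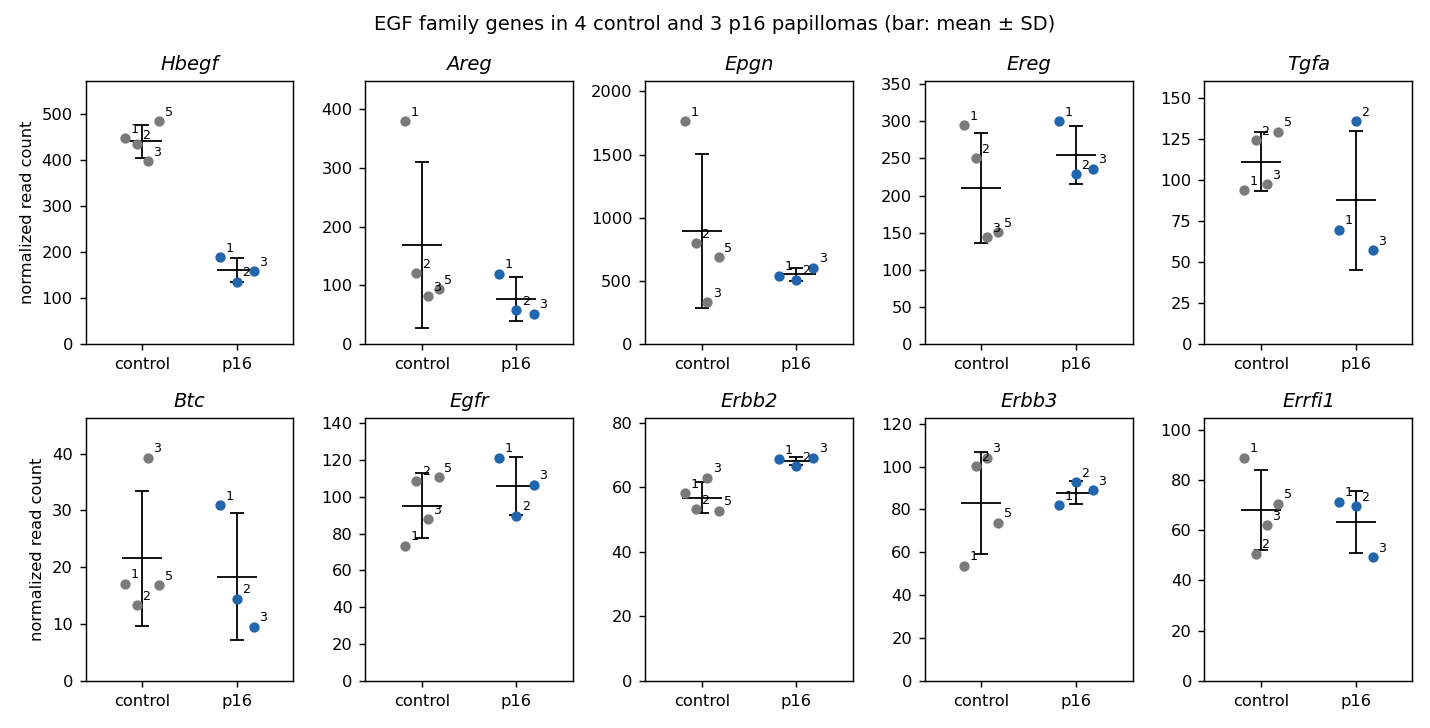
Normalized read count (y axis, linear, from 0) of each EGF family gene in the 4 control papillomas (grey) and 3 p16 papillomas (blue), each point 1 papilloma with its number, and bars giving the mean and SD. Hbegf lies between 397 and 485 in the control papillomas and between 136 and 189.7 in the p16 papillomas, and Areg and Epgn are highest in control papilloma 1.

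Hbegf encodes heparin-binding EGF-like growth factor, which promotes keratinocyte migration during wound closure, and lies on chromosome 18. It was measured at 448, 435, 397 and 485 normalized counts in control papillomas 1, 2, 3 and 5. In p16 papillomas 1, 2 and 3 it was at 189.7, 136 and 158. Each p16 papilloma lay below every control papilloma, and the gap between the groups was wider than the range within either. The lowest control value rested on 435 reads, with a 95% exact Poisson interval of 361 to 436 normalized counts. The highest p16 value rested on 141 reads, with an interval of 159.7 to 224. These intervals cover counting error only, and they did not meet.

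Mean Hbegf was 441 ± 36.1 (SD, n = 4) in control papillomas, against 161 ± 27.0 (SD, n = 3) with p16, so the control mean was 2.74 times the p16 mean. Its log2 change was -1.46 (SE 0.16, 95% interval -1.81 to -1.11, limma adjusted p = 0.000515). By p-value Hbegf ranked 26 of 10466, and by the size of its fall it ranked 280. It was called under each of the 19 alternatives run, with log2 changes from -1.58 to -1.25 and adjusted p-values up to 0.0277 (limma, with the muscle and adipocyte covariate). In whole lesions, fewer cells of a type and less RNA per cell cannot be told apart.

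Several marker lists moved with the groups. Suprabasal keratinocyte markers summed to 55621 to 67920 in control and 92538 to 134100 in p16 papillomas, and 4 of 7 rose. Basal keratinocyte markers summed to 43964 to 67907 in control and 33333 to 46403 in p16 papillomas, and by limma 1 of 7, the integrin gene Itga6, fell. At an unadjusted p under 0.05 there were 4 basal markers lower, Krt14 (log2 -0.77) and Itgb4 (-0.75) among them, and 1 higher, Krt15 (1.01), and edgeR called 1 and DESeq2 4 of the 7. Leukocyte markers summed to 891 to 2198 against 4287 to 8528 (1 of 7 tested rose, S100a8, a neutrophil gene also made by activated keratinocytes), and erythroid markers to 1946 to 13915 against 211 to 864, with all 5 lower by the test. Most of the leukocyte sum was S100a8, at 1286 ± 520.3 in control and 6083 ± 2027 in p16 papillomas. Of the 7 leukocyte markers tested, 5 had positive and 2 negative changes. At an unadjusted p under 0.05 there were 2, S100a8 higher and Itgam lower (log2 -1.16), and edgeR and DESeq2 called 1 each. Adipocyte markers summed to 1816 to 11262 against 1418 to 2417. Most of that sum was Fabp4, at 5759 ± 3958 in control and 1682 ± 541 in p16 papillomas (limma adjusted p = 0.0764), while the other 2 tested, Cfd and Adipoq, rose from 5.94 ± 3.55 to 73.9 ± 26.7 and from 5.36 ± 5.07 to 35.9 ± 17.6. Skeletal muscle markers were at 174 to 512 in control papillomas and at 229, 9005 and 1854 in p16 papillomas 1, 2 and 3, with 0 of 8 called by limma, 7 higher at an unadjusted p under 0.05 and 6 called by edgeR and by DESeq2. Mast cell markers were at 28.4 to 54.4 against 55.0 to 186, with 0 of 4 tested called by limma, although 3 had an unadjusted p under 0.05 and edgeR and DESeq2 called 2 each. The part of each of these lists in the change of Hbegf was not tested. With a fibroblast, leukocyte and endothelial score as a covariate the log2 change of Hbegf was -1.51 (limma adjusted p = 0.000869). That score overlapped between the groups (-0.60 to 0.38 in control and -0.46 to 0.51 in p16 papillomas). It does not carry the split in the leukocyte sums, so this fit cannot show the part of those cells. Hbegf was at 189.7, 136 and 158 in p16 papillomas 1, 2 and 3, where muscle markers were at 229, 9005 and 1854. Without p16 papilloma 2 the log2 change of Hbegf was -1.34 (limma adjusted p = 0.0035).

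**Figure D2:**
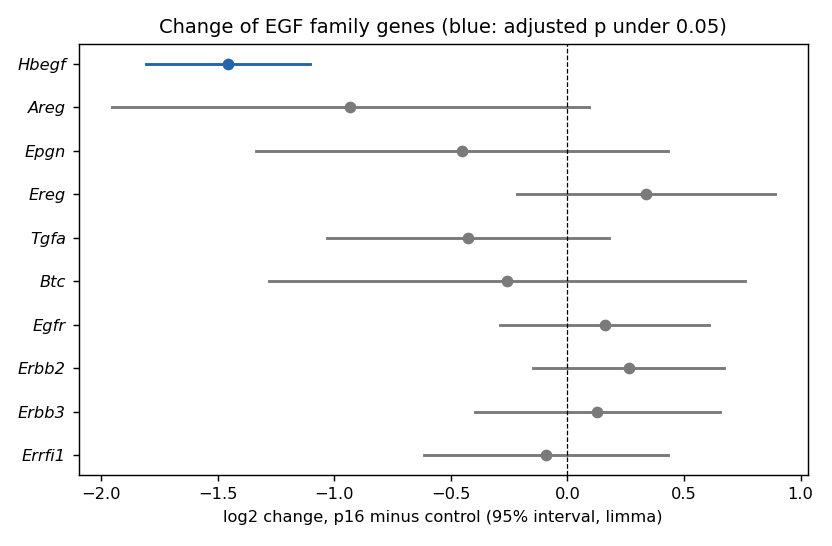
Log2 change of each EGF family gene, p16 minus control (x axis, on the log2(normalized count + 1) scale), with its 95% interval from limma. The interval of Hbegf, -1.81 to -1.11, lies below 0, and the intervals of the other 9 genes include 0.

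Areg, Epgn, Ereg and Btc lie side by side on chromosome 5, within 376 kb (91027464 to 91402994, GRCm38, GENCODE M21). Their groups overlapped, and their spread between papillomas of 1 group was wide. Areg and Epgn both peaked in control papilloma 1. The 300 bases from 250 before to 50 after the start of these 2 genes are shown from RefSeq (GRCm38.p6, both on the plus strand). Both genes lie in the cluster and were highest in control papilloma 1. Ereg lies between them and was highest in p16 papilloma 1. Errfi1, on chromosome 4, was also highest in control papilloma 1. Capitals mark the cAMP response element TGACGTCA, its core TGACG and the TATA box sequence TATAAA, each searched on both strands (CGTCA is TGACG on the other strand).
Areg, chr5:91139349-91139648: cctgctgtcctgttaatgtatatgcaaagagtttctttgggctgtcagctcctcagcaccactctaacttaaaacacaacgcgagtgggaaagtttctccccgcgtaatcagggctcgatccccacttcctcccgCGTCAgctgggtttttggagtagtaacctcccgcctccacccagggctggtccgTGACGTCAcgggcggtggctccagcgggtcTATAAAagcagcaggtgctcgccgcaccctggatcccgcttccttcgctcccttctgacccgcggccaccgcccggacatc
Epgn, chr5:91027267-91027566: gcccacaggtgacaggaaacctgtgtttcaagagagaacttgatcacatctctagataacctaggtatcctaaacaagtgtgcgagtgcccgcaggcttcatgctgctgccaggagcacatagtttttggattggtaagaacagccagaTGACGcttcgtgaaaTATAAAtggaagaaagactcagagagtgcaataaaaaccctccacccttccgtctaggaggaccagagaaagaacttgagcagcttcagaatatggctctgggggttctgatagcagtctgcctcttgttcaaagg
In the Areg window TGACGTCA starts 61 bases and TATAAA 31 bases before the start of the gene, and a further TGACG match lies outside the element. In the Epgn window TGACG starts 101 bases and TATAAA 86 bases before the RefSeq start of the gene. The GENCODE start of Epgn, 91027464, lies within this window and before the RefSeq start. Counted from the GENCODE start both distances are shorter, so they depend on the annotation. Of all 32851 windows of this length, 1.79% held TGACGTCA, 20.8% TGACG (a count that includes each TGACGTCA) and 13.6% TATAAA. Windows were counted for 7 of the 10 members (8 windows), and the called member was not among these 7. Of the 8 windows, 2 held TGACGTCA (Areg and Errfi1), 5 TGACG and 3 TATAAA. The AP-1 sequence TGANTCA was in 0 of these 8 and in 7.81% of all. A match is a description of the sequence and does not show that a factor binds there.

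Areg encodes amphiregulin, a ligand that keratinocytes make for their own receptors. It was at 379, 121, 81.3 and 93.8 normalized counts in control papillomas 1, 2, 3 and 5. The p16 papillomas held 119.7, 57.9 and 52.2. Control papilloma 1 alone was far above the rest, p16 papilloma 1 lay among the other control papillomas, and p16 papillomas 2 and 3 lay below all of them. On the log2 scale the change was -0.93 (SE 0.47, 95% interval -1.95 to 0.09, limma adjusted p = 0.28), and without control papilloma 1 it was -0.44. The control SD was 83.7% of the mean where counting error alone gives 7.73%.

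Epgn encodes epigen, a ligand of Egfr that is made in epithelia. It was at 1764, 797, 333 and 690.2 in control papillomas 1, 2, 3 and 5 and at 542, 509 and 605 in p16 papillomas 1, 2 and 3. The p16 values were close together and fell inside the control range. The log2 change was -0.45 (SE 0.40, 95% interval -1.34 to 0.43, limma adjusted p = 0.565), and -0.04 without control papilloma 1. Its SD came to 68.3% of the mean in control and 8.79% in p16 papillomas, where counting error gives 3.35% and 5.48%.

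Ereg encodes epiregulin, a ligand that binds Egfr and Erbb4. It was at 295, 250.05, 144 and 151 in control papillomas 1, 2, 3 and 5 and at 300.0, 229 and 236 in p16 papillomas 1, 2 and 3. The values of p16 papillomas 2 and 3 lay within the control range and that of p16 papilloma 1 just above it. Among the ligands Ereg had the one positive log2 change, 0.34 (SE 0.25, 95% interval -0.22 to 0.89, limma adjusted p = 0.484).

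Btc, the betacellulin gene, was the member with the fewest reads (5 to 43 per library). It was at 17.1, 13.3, 39.3 and 16.9 in control papillomas 1, 2, 3 and 5 and at 30.9, 14.5 and 9.56 in p16 papillomas 1, 2 and 3. Its log2 change was -0.26 (SE 0.47, 95% interval -1.28 to 0.76, limma adjusted p = 0.799), and its sign turned to positive without control papilloma 3 (0.06) or p16 papilloma 3 (0.10). On a linear scale the interval runs from 0.412 to 1.69 times the control level. The SD was 55.0% of the mean in control and 61.1% in p16 papillomas, where counting error gives 21.6% and 30.1%.

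Tgfa, on chromosome 6 (86195223 to 86275719), encodes transforming growth factor alpha, a ligand of Egfr in keratinocytes. Control papillomas 1, 2, 3 and 5 held 93.9, 124, 97.7 and 129.6. In p16 papillomas 1, 2 and 3 it was at 70.0, 136 and 57.3. Papillomas 1 and 3 of the p16 group lay below every control papilloma, and p16 papilloma 2, the library with the fewest reads, lay above every one. On the log2 scale the change was -0.43 (SE 0.28, 95% interval -1.03 to 0.18, limma adjusted p = 0.407), and -0.79 without p16 papilloma 2 (adjusted p = 0.0984).

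Reads of the 6 ligands were summed to see how Hbegf stood among them. The sum was 2997, 1741, 1093 and 1566 normalized counts in control papillomas 1, 2, 3 and 5 and 1252, 1083 and 1118 in p16 papillomas 1, 2 and 3. Without Hbegf, the other 5 ligands summed to 1408 ± 801 (SD, n = 4) in control papillomas and to 989.7 ± 63.6 (SD, n = 3) with p16, and the groups overlapped. The share of Hbegf in the ligand reads ran from 14.9% (95% Wilson interval 13.8 to 16.2) in control papilloma 1 to 36.3% (33.7 to 39.1) in control papilloma 3, and from 12.6% (9.58 to 16.3) to 15.1% (13.0 to 17.6) in p16 papillomas. The low share in control papilloma 1 went with its high Epgn and Areg. Ereg supplied 9.62% to 14.4% of the ligand reads in control and 21.1% to 23.95% in p16 papillomas, without overlap. A share also moves when other ligands change, and these shares carry no test.

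**Figure D3:**
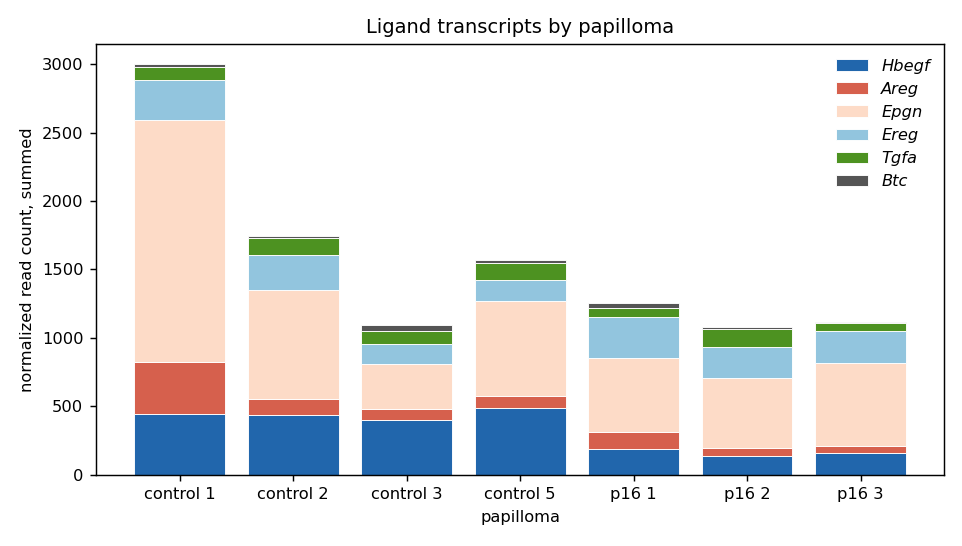
Normalized read counts of the 6 ligands (y axis, stacked, from 0) in each papilloma (x axis). The Hbegf segment at the base is 397 to 485 in the control papillomas and 136 to 189.7 in the p16 papillomas, and the total is highest in control papilloma 1 (2997), where Epgn takes 1764.

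The log2 ratio of Hbegf to each of the other 5 ligands and the 3 receptors within a papilloma is given as a description, with no test, since Hbegf was taken for its difference between the groups and the 8 ratios share its values. The ratio to Ereg was 1.13 ± 0.52 (SD, n = 4) in control papillomas, against -0.66 ± 0.08 (SD, n = 3) with p16. For Tgfa it was 1.99 ± 0.19 against 0.96 ± 0.83, and for Egfr 2.22 ± 0.26 against 0.60 ± 0.04. The mean ratios to Erbb2 and Erbb3 differed by -1.72 and -1.58. For these 5 genes the ratio was lower in every p16 papilloma than in any control papilloma. The ratios to Areg, Epgn and Btc overlapped between the groups, with mean differences of -0.52, -1.002 and -1.20.

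**Figure D4:**
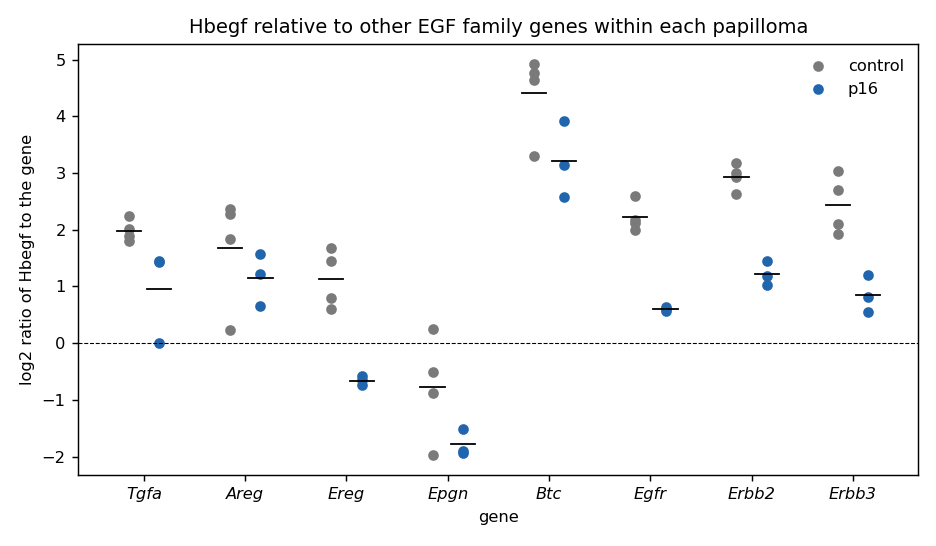
Log2 ratio of Hbegf (y axis) to each other ligand and receptor (x axis), each point 1 papilloma, control in grey and p16 in blue, with the mean as a line. The groups separate for Tgfa, Ereg, Egfr, Erbb2 and Erbb3 and overlap for Areg, Epgn and Btc.

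None of the 3 receptor genes was called (at an unadjusted p under 0.05 the count was also 0, as it was by edgeR and DESeq2). Egfr (chromosome 11, 16752203 to 16918158), the receptor for all 6 ligands, was at 73.4, 109, 87.7 and 111 in control papillomas 1, 2, 3 and 5 and at 121, 89.7 and 107 in p16 papillomas 1, 2 and 3. The groups overlapped, and the log2 change was 0.16 (SE 0.20, 95% interval -0.29 to 0.61, limma adjusted p = 0.699). On a linear scale that interval runs from 0.82 to 1.53 times the control level, so a fall of Egfr as large as that of Hbegf lies outside it.

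Erbb2 (chromosome 11, 98412470 to 98437716), which has no known ligand and acts as a partner of the other receptors, was at 58.1, 53.2, 63.0 and 52.7 in control papillomas 1, 2, 3 and 5. In p16 papillomas 1, 2 and 3 it was at 68.6, 66.6 and 69.1. Each p16 papilloma lay above every control papilloma, by a small margin. The log2 change was 0.26 (SE 0.19, 95% interval -0.15 to 0.67) and did not pass (limma adjusted p = 0.457). The p16 values differed less (1.96% of the mean) than counting error alone gives on average (15.6%), and the counting intervals of the groups overlapped (42.2 to 99.9 for the 23 reads of p16 papilloma 2). Mien1 overlaps Erbb2 on the other strand, and how strand was used in counting was not given in the sources used here, so reads of these 2 genes may not be fully told apart.

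Erbb3 (chromosome 10, 128567523 to 128589652), whose own kinase is weak and which binds neuregulins, was at 53.8, 100.3, 104 and 73.8 in control papillomas 1, 2, 3 and 5. The p16 papillomas held 82.1, 92.6 and 88.9, in the middle of that range. Its log2 change was 0.13 (SE 0.24, 95% interval -0.40 to 0.65, limma adjusted p = 0.808), and -0.06 without control papilloma 1.

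Errfi1 (chromosome 4, 150853919 to 150868892) encodes an inhibitor that binds the Egfr kinase and that Egfr signaling induces as feedback. It was at 88.8, 50.7, 62.1 and 70.6 in control papillomas 1, 2, 3 and 5 and at 71.3, 69.5 and 49.2 in p16 papillomas 1, 2 and 3. The groups overlapped. On the log2 scale the change was -0.09 (SE 0.24, 95% interval -0.62 to 0.43, limma adjusted p = 0.867), with its sign turned to positive without control papilloma 1 (0.04) or p16 papilloma 3 (0.08).

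Beyond the members, 55 other genes of the pathway were read from 5 lists, which were chosen with earlier results of these data known. Of the 55 genes, 53 were in the table and 47 passed the filter, of which 5 fell and 0 rose (10.6%, beside 5.62% of all genes tested). Nrg1 encodes a neuregulin, the ligand class of Erbb3, and was the one tested gene among the other EGF family genes. It was at 59.8, 74.9, 98.6 and 66.4 in control papillomas 1, 2, 3 and 5 and at 32.3, 23.2 and 22.8 in p16 papillomas 1, 2 and 3. The groups did not overlap, although the p16 values rested on 24, 8 and 31 reads. The log2 change was -1.48 (SE 0.25, 95% interval -2.02 to -0.94, limma adjusted p = 0.00521), and the call was lost with the muscle and adipocyte covariate (-1.14, adjusted p = 0.154).

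Of 9 genes for ligand shedding, 0 passed (limma). At an unadjusted p under 0.05 there were 2, both higher in p16 papillomas, and edgeR and DESeq2 each called 0. These were Rhbdf1, a partner of the sheddase Adam17, at 49.7 ± 5.97 (SD, n = 4) and 74.3 ± 1.44 (SD, n = 3, limma adjusted p = 0.114), and Adam17 itself, at 122 ± 29.6 and 169.8 ± 23.6 (adjusted p = 0.203). Of 11 tested adaptors and relays that act at the receptor, 0 passed, with the smallest p for the adaptor Shc1 (log2 -0.998, adjusted p = 0.121), and of 13 genes that attenuate the receptor 0 passed, with the smallest p for the phosphatase Ptprj (-1.02, adjusted p = 0.176). In these lists 2 adaptors and 1 attenuator had an unadjusted p under 0.05, and edgeR and DESeq2 called 0 in each.

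The last list holds genes that are transcribed in response to ERK. Of 13 tested, 12 had negative changes, where 5458 of all 10466 genes did, and the median log2 change was -0.67, where that of all genes was -0.02. The limma test called 4 of them lower (Ccnd1, Dusp6, Fosl1 and Ier3), beside 2.96% of all genes. These counts describe a list chosen with earlier results of these data known, and the list as a whole was not tested. Ccnd1 is the cyclin D1 gene, and the paper describes the Ccnd genes as also responding to Wnt. It was at 1243, 1499, 2032 and 1868 in control papillomas 1, 2, 3 and 5 and at 558, 371 and 479 in p16 papillomas 1, 2 and 3. Among the p16 papillomas Ccnd1 had the same order as Hbegf, and among the control papillomas it was highest in number 3, where Hbegf was lowest. Dusp6 encodes an ERK phosphatase, Fosl1 a subunit of AP-1 and Ier3 an immediate early protein, and each of these 3 lost its call in at least 5 of the 19 alternatives, Dusp6 for example without p16 papilloma 2 (adjusted p = 0.0855). Ccnd1 kept its call in each.

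**Figure D5:**
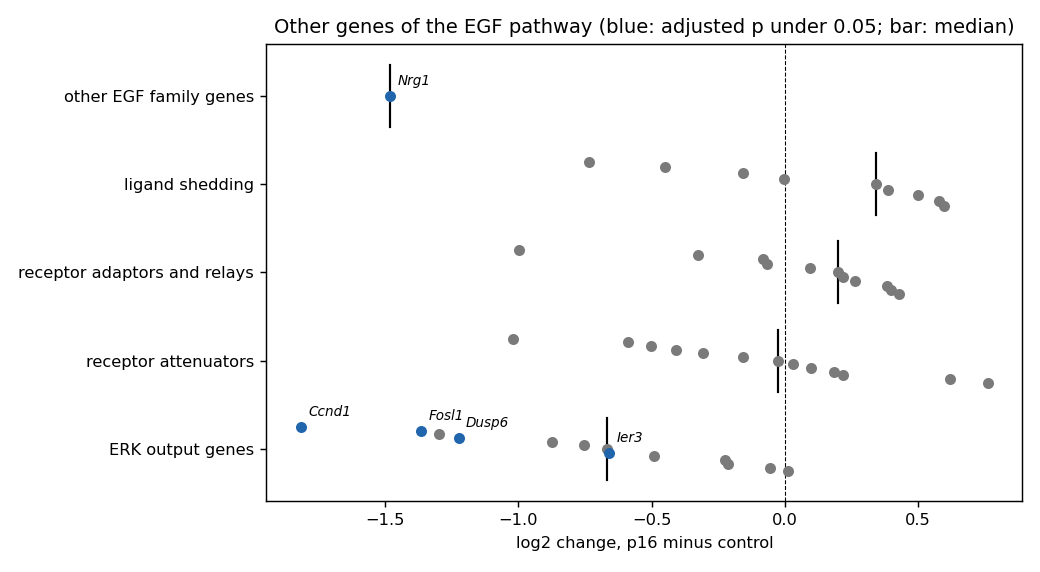
Log2 change, p16 minus control (x axis), of the tested genes of 5 lists of the EGF pathway (y axis), each point 1 gene, blue where the limma adjusted p is under 0.05, with the list median as a bar. The 5 blue points, Nrg1 and 4 ERK output genes, all lie below 0, and the medians of the shedding, adaptor and attenuator lists are 0.34, 0.20 and -0.03.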

How the data were processed

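Whole papillomas were profiled by CEL-Seq2. As the study's methods and the processing notes of the submitters state, the authors trimmed reads with Cutadapt, aligned them to GRCm38 with TopHat2, counted genes with HTSeq and tested them with DESeq2; for versions and annotation, not given in the sources used here. The deposited signal values are the authors' normalized read counts. Other columns hold the comparison of the authors (log2 fold change and its error, the Wald score, raw and adjusted p-value), and none of it was used. All values (100%) were whole multiples of 1 read (tolerance 0.001 reads), so reads were recovered for counting errors and for the count-based alternatives; the sources used here state no correction for amplification duplicates.

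Genes were tested by limma (trend option, two-sided, Benjamini-Hochberg adjustment) after log2(value + 1). The 10466 genes tested had a group mean of 10 or more in control or p16 papillomas. The understatement of changes by the added 1 is larger for low genes. The alternatives were pseudocounts of 0.5 and 4, no filter or one at 50, TMM scaling or scaling to the total reads, limma-voom, DESeq2 and edgeR on recovered reads, the papilloma number as a block, a muscle and adipocyte or a stromal marker score as a covariate, and omission of each papilloma. Named are the 10 members, of each pathway list the genes called (at most 4) or, with none called, the gene with the smallest p, the 3 genes most like Egfr, Areg and Tgfa in profile, and the neighbours of the ligand cluster. A gene that this rule names is not reported here. Adam17 and the marker genes were named after their values were seen. The members and lists were chosen with earlier results of these data known. The tests were tested on simulated reads. Analyses used DESeq2 1.42.0, edgeR 4.0.16 and limma 3.58.1 in R 4.3.3, and scipy 1.17.1, pandas 2.3.3, numpy 2.4.6 and matplotlib 3.10.9 in Python 3.11.15. Positions are from GENCODE M21, where 14801 of 14820 gene IDs were found. The member counts of sequence matches leave out Hbegf, Ereg and Erbb3, so the start of Hbegf was not examined.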

Additional observations from a re-analysis of the deposited data

Results flagged for a closer look

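In 2 of the 10 members, 1 control papilloma stood apart from the other 3 by Dixon's criterion at the 95% level, which chance meets in about 1 of 20 groups. Areg was at 379 in control papilloma 1, where the gap to the next control papilloma took 0.867 of the whole range. In the same papilloma Epgn (1764) and Ereg (295), of the same cluster on chromosome 5, were also the highest of the control papillomas, while Btc (17.1), in that cluster too, was not. Btc was at 39.3 in control papilloma 3, on 43 reads, with a gap of 0.854 of the range.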

How the results depend on the processing

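The call of Hbegf held under each of the 19 alternatives, and the other 9 members were called under none of those in which they were tested (Btc was not tested with the filter at 50). The number of members called was therefore 1 throughout, also with each papilloma left out. Of 10466 genes, 588 were called, against 76 with the muscle and adipocyte covariate and 267 to 548 with 1 papilloma left out (267 without p16 papilloma 2, 351 without control papilloma 2 or 5, 382 without p16 papilloma 1). DESeq2 on recovered reads called 786, edgeR 543 and limma-voom 436. The 5 calls among the pathway lists came to 1 with that covariate and to between 2 and 5 with 1 papilloma left out (2 without control papilloma 2, p16 papilloma 2 or p16 papilloma 3, and 3 without control papilloma 5). The stromal covariate gave 590 genes and 5 pathway genes. The muscle and adipocyte score was -1.82 to -0.23 in control papillomas. In p16 papillomas 1, 2 and 3 it was -0.61, 3.03 and 1.31. Each covariate and each omission leaves fewer degrees of freedom by construction, and why the counts differ was not tested. Same-numbered papillomas did not deviate together (correlations of -0.09, -0.01 and -0.05 for numbers 1, 2 and 3), so the numbers were not treated as pairs. The replicate block, in which control papilloma 5 has no partner and adds nothing to the contrast, gave 270 genes, 1 member (Hbegf, log2 change -1.41, limma adjusted p = 0.0098) and 4 pathway genes. Scaling moved the median log2 change of all genes from -0.02 to -0.01 at most.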

Other observations

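Genes whose profile over the 7 papillomas was nearest to that of Areg included Rgs2, a regulator of G protein signaling, and Piwil2. Their root mean square differences from Areg were 0.33 and 0.42 on the log2 scale, with the mean of each profile removed. The Areg profile itself had an SD of 0.94, and Piwil2 rested on 2 to 51 reads per library. Rgs2 was at 250.2 normalized counts in control papilloma 1 and at 48.4 to 85.8 in the other 6. The nearest profiles to Egfr were those of N4bp1 (0.06), Kdm5c (0.07) and Lrrfip2 (0.07), and to Tgfa those of Rnf19b (0.13), Socs5 (0.14) and Ccdc97 (0.15). These are descriptions over 7 points that share their libraries, and likeness was ranked over all genes tested.

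The genes that flank the ligand cluster on chromosome 5 were not called. Mthfd2l, a mitochondrial folate enzyme gene (90931117 to 91021368), was at 56.4, 19.3, 40.2 and 33.7 in control papillomas 1, 2, 3 and 5 and at 24.2, 5.79 and 25.7 in p16 papillomas 1, 2 and 3 (log2 -1.11, SE 0.50, limma adjusted p = 0.227), with its highest value in control papilloma 1, as for Areg, Epgn and, among the control papillomas, Ereg. Parm1 (91517615 to 91626894) was highest in control papilloma 3 (112), the papilloma in which its neighbour Btc was also highest, and at 10.8 to 22.1 in the other 6 (log2 -0.49, SE 0.65, limma adjusted p = 0.714).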
